A study of Mus musculus with 4 samples.

Results

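The loci described here belong to 9 cell-cycle genes of the mouse. They are *Myc*, the cyclin genes *Ccnd2*, *Ccnd3* and *Ccne1*, the kinase genes *Cdk4* and *Cdk6*, and the inhibitor genes *Cdkn1a*, *Cdkn1b* and *Cdkn2c*. A ChIP-seq peak was counted at a locus when its centre lay within 50 kb of any annotated transcription start site (TSS) of the gene, so the choice rested on position and not on any measured value. The 9 genes are part of 22380 protein-coding genes, and 138 of the 103355 peaks listed in the 4 libraries lay at their loci.

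Binding of JunB, BATF and IRF4 was mapped in regulatory T (Treg) cells, CD4+CD25+ cells from spleens of C57BL/6 mice that were kept for 60 h with IL-2 and with antibodies to CD3 and CD28. The JunB, BATF and IRF4 libraries of *Junb*-sufficient cells and a further IRF4 library of *Junb*-deficient cells were available, 1 library per condition. The comparison of both IRF4 libraries addresses whether IRF4-binding depends on JunB. The labels call the genotypes Foxp3cre JUNB+/+ and Foxp3cre JUNBFl/Fl, whereas the study names *Cd4*Cre mice with floxed *Junb* for this assay, and floxed mice without Cre as controls. *Foxp3* drives Cre in Treg cells, and *Cd4* drives it in all cells of the T lineage. In the second case deletion precedes Treg development, and in both the CD4+CD25+ gate can hold activated conventional T cells. For another of its experiments the study reports Foxp3 in nearly all CD4+CD25+ cells isolated from spleens. The labels give no age or sex. Peak lists hold no RNA, so neither the Treg markers nor the loss of *Junb* could be checked in these cells. The antibody field of the labels exchanges BATF and IRF4 for *Junb*-sufficient cells, and the sample titles, which match the study's own list of libraries, were followed. By title the IRF4 lists of *Junb*-sufficient and *Junb*-deficient cells held 31093 and 29033 peaks with 12.76% and 11.15% of tags in peaks, and the BATF list held 13570 with 5.03%.

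Because each condition had 1 library, no test between genotypes was possible, and no difference below has a replicate check. Peaks were called on 16.0 M to 17.9 M sequence tags per library. The peak size was 150 bp for JunB and 605 or 612 bp for the other lists. The minimum distance between peaks was 300 bp for JunB and 1210 or 1224 bp for the other lists. Close neighbours could therefore be listed apart for JunB alone, which bears on its counts and on JunB peaks without a partner. The JunB caller run required 10 tags per peak and the other runs 19. The lists hold no peak heights, so the place of a peak in its list, as a percentage of the list, was used as a description. The order of the lists is not named in them, but the share of IRF4 peaks without a *Junb*-deficient counterpart was 11.1% in the third of 20 equal parts of the *Junb*-sufficient list and 70.0% in the last. Intervals given below are exact binomial (Clopper-Pearson) 95% intervals over peaks and cover counting error only. PCR reads and neighbouring peaks are not independent, which the intervals leave out.

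Progression from G1 into S phase is driven by D-type cyclins with CDK4 or CDK6 and then by cyclin E with CDK2, which together phosphorylate the retinoblastoma protein and release E2F factors. Inhibitors of the Cip/Kip family (p21, p27) and of the INK4 family (p18) hold these kinases back, and Myc, a transcription factor that promotes growth, raises several cyclins and kinases and lowers inhibitors in many cell types. In activated lymphocytes JunB and BATF pair as AP-1 dimers, and BATF-containing dimers with IRF4 occupy composite AP-1-IRF elements (AICE).

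The sequences of the sites on which the results turn are shown first. For *Myc*, *Cdk6* and *Cdkn2c*, the genes with IRF4 peaks over JunB that lacked a *Junb*-deficient counterpart, the highest-listed JunB peak shared with BATF and IRF4 is given. The middle of each such unmatched IRF4 peak follows, at the listed width of a JunB peak. JunB peaks of *Ccne1* and *Cdk4* are added because, among the highest-listed triple sites of the 9 genes, they held 2 motif matches each. All are on the plus strand of mm9. Capitals mark matches on either strand to the AP-1 consensus (TGACTCA or TGAGTCA) or to an interferon-stimulated response element (ISRE, GAAANNGAAA). AICE were searched as TTTCNNNNTGANTAA, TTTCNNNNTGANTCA, GAAATGANTAA and GAAATGANTCA, the latter form of each pair being able to share its last letters with an AP-1 match. Distances are from the nearest TSS of the gene, negative upstream.
Myc JunB peak at -35.4 kb, chr15:61781460-61781610: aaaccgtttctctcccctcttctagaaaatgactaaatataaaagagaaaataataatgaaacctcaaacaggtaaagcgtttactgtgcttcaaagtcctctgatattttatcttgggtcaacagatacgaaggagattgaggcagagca
Myc unmatched IRF4 peak at -1.8 kb, chr15:61815104-61815254: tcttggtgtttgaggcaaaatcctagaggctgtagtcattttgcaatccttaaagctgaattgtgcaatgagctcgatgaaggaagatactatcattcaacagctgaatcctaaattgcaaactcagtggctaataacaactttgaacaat
Myc unmatched IRF4 peak at 11.6 kb, chr15:61830485-61830635: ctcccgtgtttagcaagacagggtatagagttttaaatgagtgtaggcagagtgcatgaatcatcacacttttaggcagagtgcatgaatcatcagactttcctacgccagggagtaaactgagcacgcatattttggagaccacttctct
Myc unmatched IRF4 peak at 41.1 kb, chr15:61860032-61860182: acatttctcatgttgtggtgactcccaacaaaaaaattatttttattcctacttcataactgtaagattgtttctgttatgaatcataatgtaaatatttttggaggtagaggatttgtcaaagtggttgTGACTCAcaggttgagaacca
Cdk6 JunB peak at -42.6 kb, chr5:3301224-3301374: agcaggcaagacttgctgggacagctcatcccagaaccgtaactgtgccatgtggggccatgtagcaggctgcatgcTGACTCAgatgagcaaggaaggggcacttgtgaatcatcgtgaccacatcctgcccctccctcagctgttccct
Cdk6 unmatched IRF4 peak at -22.9 kb, chr5:3320883-3321033: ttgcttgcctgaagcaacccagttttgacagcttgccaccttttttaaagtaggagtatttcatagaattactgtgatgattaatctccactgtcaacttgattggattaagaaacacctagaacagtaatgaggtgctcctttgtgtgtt
Cdk6 unmatched IRF4 peak at 29.0 kb, chr5:3373282-3373432: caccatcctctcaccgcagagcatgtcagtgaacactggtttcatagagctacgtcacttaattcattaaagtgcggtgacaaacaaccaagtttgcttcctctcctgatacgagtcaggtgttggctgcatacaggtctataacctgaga
Cdkn2c JunB peak at -7.3 kb, chr4:109347058-109347208: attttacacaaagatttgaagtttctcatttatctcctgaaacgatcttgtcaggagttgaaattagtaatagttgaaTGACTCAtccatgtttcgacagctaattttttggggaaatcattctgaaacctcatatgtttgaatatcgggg
Cdkn2c unmatched IRF4 peak at -36.6 kb, chr4:109376300-109376450: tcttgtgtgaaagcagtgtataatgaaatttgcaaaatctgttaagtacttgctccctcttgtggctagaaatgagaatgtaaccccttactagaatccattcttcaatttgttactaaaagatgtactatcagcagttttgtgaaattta
Cdkn2c unmatched IRF4 peak at -38.3 kb, chr4:109378053-109378203: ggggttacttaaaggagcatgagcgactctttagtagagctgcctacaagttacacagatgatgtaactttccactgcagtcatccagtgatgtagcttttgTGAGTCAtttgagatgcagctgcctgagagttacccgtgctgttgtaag
Ccne1 JunB peak at 28.2 kb, chr7:38856143-38856293: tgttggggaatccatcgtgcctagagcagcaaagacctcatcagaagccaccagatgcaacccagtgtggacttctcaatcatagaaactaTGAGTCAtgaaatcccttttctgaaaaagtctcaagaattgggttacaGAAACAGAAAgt
Cdk4 JunB peak at 48.3 kb, chr10:126551398-126551548: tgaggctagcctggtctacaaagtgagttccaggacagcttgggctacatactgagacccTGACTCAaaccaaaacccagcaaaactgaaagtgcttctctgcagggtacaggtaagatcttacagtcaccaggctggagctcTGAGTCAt

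*Myc* had the most IRF4 peaks that were listed in *Junb*-sufficient cells alone, 4 of the 13 such peaks at the 9 loci. Such peaks are called unmatched below, and peaks with an overlapping IRF4 peak in the other genotype (1 bp or more) are called kept. Its locus held 6 JunB, 4 BATF, 5 IRF4 and 2 *Junb*-deficient IRF4 peaks. Each of the 17 lay outside annotated protein-coding genes and nearer to a *Myc* TSS than to any other protein-coding TSS. At least 6 JunB peaks were found at 5.96% of protein-coding genes, and at least 4 JunB peaks shared with BATF and IRF4, as at *Myc*, at 2.11%. *Myc* lies on chromosome 15 (61816946 to 61821929, plus strand, mm9).

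All 4 BATF peaks of *Myc* overlapped JunB and IRF4 peaks, at -35.4, -1.8, 11.6 to 11.9 and 41.1 kb. Of these 4 triple sites the one at -35.4 kb kept an IRF4 peak in *Junb*-deficient cells. It stood at 24.5% of the *Junb*-sufficient list and at 37.3% of the *Junb*-deficient list. The site at -1.8 kb, upstream of the promoter, was the highest-listed IRF4 peak of the locus (place 4106 of 31093, 13.2% of the list), and no *Junb*-deficient IRF4 peak lay closer than 33647 bp. Among IRF4 peaks over JunB near any protein-coding gene in the same 1 of 20 equal parts of the list, 11.1% lacked a counterpart. Next to it, at -3.8 kb, an IRF4 peak without JunB or BATF (15.3% of the list) was likewise unmatched, as were 7.12% of peaks off JunB of like place. The sites at 11.6 kb (41.1% of the list) and 41.1 kb (53.6%) were in parts of the list where 37.4% and 40.3% of peaks over JunB lacked a counterpart.

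Near the site at 41.1 kb the *Junb*-deficient list held another IRF4 peak. It stood at 40.1 kb, 1000 bp from the unmatched one, lay over another JunB peak of *Junb*-sufficient cells and had no *Junb*-sufficient IRF4 counterpart. Thus 1 of 5 *Myc* IRF4 peaks was kept, where 3.94 would be kept at the rates of all peaks of like place. Among 1766 genes with 5 IRF4 peaks, 3.74% kept as few or fewer. Several JunB peaks of *Myc* were low in their list. Those at -2.3, -1.8 and 40.0 kb all stood at 75.4%, within 1 run of peaks that follow each other by position, and the highest was that at -35.4 kb, at 19.8%.

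**Figure D1:**
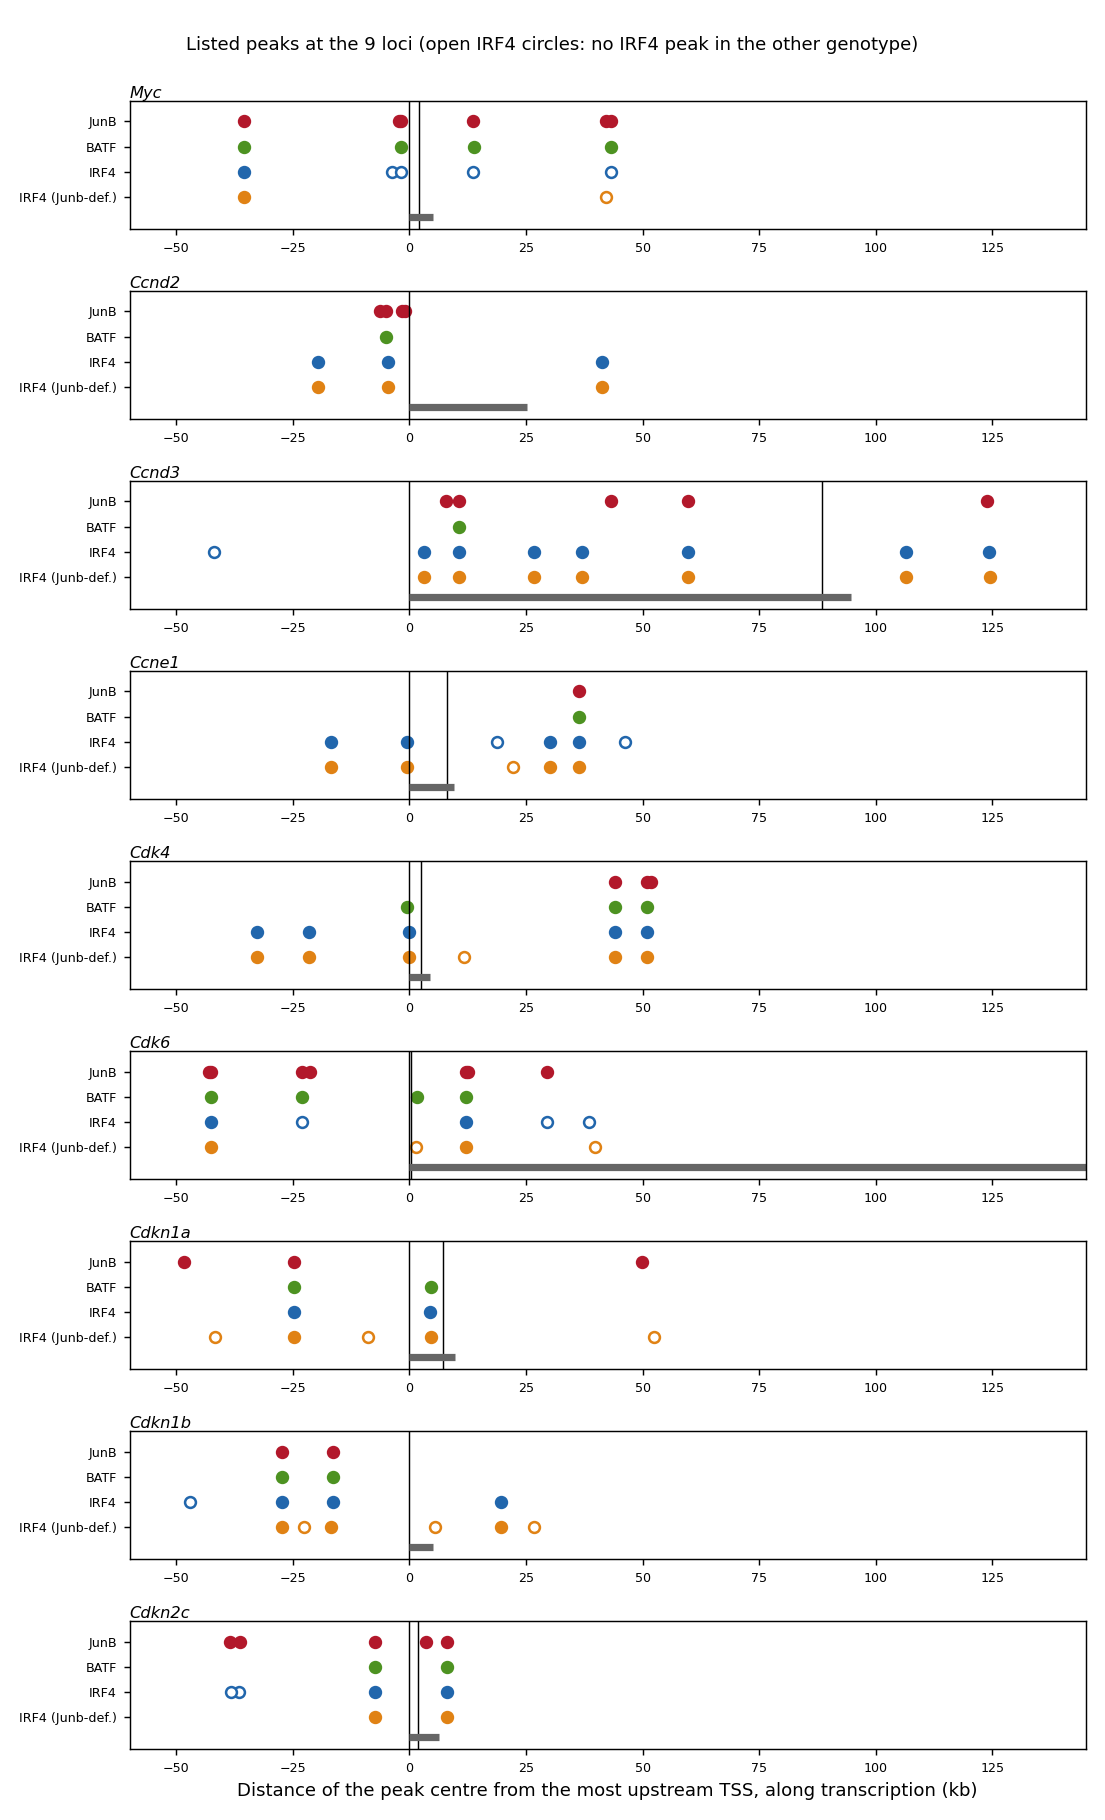
Positions of the listed peaks at the 9 loci, in kb from the most upstream TSS along the direction of transcription, with 1 row per library. Vertical lines are the first and the last annotated TSS, grey bars the genes, and open IRF4 circles peaks without an IRF4 peak in the other genotype. *Myc* has 4 open circles in *Junb*-sufficient cells and *Ccnd2*, *Cdk4* and *Cdkn1a* have none there. Distances in the text are from the nearest TSS and can differ from this axis at genes with several TSSs.

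At the cyclin genes *Ccnd2*, *Ccnd3* and *Ccne1*, 14 of 17 IRF4 peaks had a *Junb*-deficient counterpart and 3 did not. At the rates of like place 11.2 would have one, and over all IRF4 peaks near protein-coding genes 65.7% did. *Ccnd2*, which encodes cyclin D2 (chromosome 6, 127075797 to 127101066, minus strand), had 4 JunB, 1 BATF and 3 IRF4 peaks, and 3 IRF4 peaks in *Junb*-deficient cells. All 3 IRF4 peaks were kept. The one at -4.6 kb was the second highest of all 42 (place 1456, 4.68% of the list) and stood at 4.91% in *Junb*-deficient cells. It overlapped the only BATF peak of the locus but was separated by 12 bp from the JunB peak at -5.0 kb, so at the 1 bp rule *Ccnd2* alone of the 9 had no triple site. The *Junb*-deficient IRF4 peak at this place did overlap both. The IRF4 peaks at -19.7 kb (61.9% and 59.9% of the lists) and 41.4 kb (76.6% and 74.4%) lay off JunB and BATF. The other JunB peaks of the locus, at -0.9, -1.5 and -6.3 kb, overlapped no peak of another list.

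*Ccnd3*, the gene of cyclin D3, had 5 JunB, 1 BATF, 8 IRF4 and 7 *Junb*-deficient IRF4 peaks in a window of 188.4 kb, since its annotated TSSs lie far apart (chromosome 17, 47642000 and 47730416, plus strand). It kept 7 of 8 IRF4 peaks, where 5.36 would be kept at the rates of like place. Among 270 genes with 8 IRF4 peaks, 17% kept at least as many. The unmatched one, at -41.9 kb in an intron of *AI661453*, stood at 97.4% of the list, where 70.1% of peaks off JunB were unmatched. The triple site at 10.6 kb, in a *Ccnd3* intron, was high in all lists, at 5.80% for JunB, 18.5% for BATF, 8.92% for IRF4 and 16.8% for IRF4 in *Junb*-deficient cells. Kept peaks off JunB stood at 3.1, 18.1, 26.8, 36.0 and 37.1 kb, and JunB peaks without partner at 7.9, 35.5 and 43.2 kb. The peak at 18.1 kb lay 31 bp from a TSS of *Bysl*, and those at 35.5 and 36.0 kb in an intron of *Med20*. Of the 21 peaks of the locus 15 were nearest to *Ccnd3*. An intronic peak at -28.7 kb from the downstream TSS went the other way. It lay over a JunB peak at 99.3% of the JunB list, and it moved up from 61.4% to 28.4% of the IRF4 list in *Junb*-deficient cells.

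*Ccne1*, which encodes cyclin E1 (chromosome 7, 38883003 to 38892553, minus strand), was the locus with fewest JunB peaks. It had 1 JunB, 1 BATF, 6 IRF4 and 5 *Junb*-deficient IRF4 peaks, all intergenic. The single JunB peak at 28.2 kb was a triple site with 1 AP-1 and 1 ISRE match (shown above), and its IRF4 peak was kept, at 25.2% and 36.2% of the lists. Both unmatched IRF4 peaks, at 10.7 and 38.1 kb, lay off JunB in the lower part of the list (54.2% and 83.9%). In those parts 28.9% and 56.8% of peaks off JunB were unmatched. A *Junb*-deficient peak without a counterpart lay 3411 bp from the one at 10.7 kb, at 14.1 kb. The peak at -0.5 kb was kept at nearly the same place, 54.2% and 55.3%.

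The kinase genes differed from each other by count. *Cdk4*, a kinase partner of D-type cyclins (chromosome 10, 126500590 to 126504976, plus strand) had 3 JunB, 3 BATF, 5 IRF4 and 6 *Junb*-deficient IRF4 peaks, and it kept all 5. Of its 17 peaks 14 were nearer to the TSS of another gene. Both triple sites, at 41.6 and 48.3 kb, lay in introns of *Os9*. Here IRF4 peaks were kept but lower in the list, moving from 18.2% to 34.3% and from 11.5% to 38.7%. The promoter itself carried IRF4 in both genotypes, at 55.3% and 48.1% of the lists, with a BATF peak and no JunB peak. Off JunB and BATF, the IRF4 peak at -32.7 kb went from 45.3% to 74.9%, and that at -21.6 kb from 86.2% to 81.6%. They lay 21 bp from a TSS of *Tsfm* and 22 bp from a TSS of *Mettl1*. The *Junb*-deficient list had 1 further peak at 9.2 kb, close to *Agap2*. With 5 of 5 kept, against 3.50 at the rates of like place, *Cdk4* belonged with *Ccnd2* and *Cdkn1a* to the genes without an unmatched IRF4 peak. Of genes with at least 1 IRF4 peak, 33.3% kept all of theirs.

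*Cdk6*, the other such kinase (chromosome 5, 3343893 to 3523218, plus strand) had the most JunB peaks, 7, together with 4 BATF, 5 IRF4 and 4 *Junb*-deficient IRF4 peaks. At least 7 JunB peaks were found at 3.99% of genes. The JunB peaks at -43.0 and 12.2 kb overlapped no other list and lay beside those at -42.6 and 11.7 kb. Each of the 20 peaks was nearest to *Cdk6*. Its site at 11.7 kb, in a *Cdk6* intron, was the highest IRF4 peak of all 9 loci in both genotypes, at place 556 (1.79%) and place 742 (2.56%). The triple site at -42.6 kb held the highest JunB peak of the 9 loci, at place 704 (2.37%). Its IRF4 peak moved from 7.83% to 25.7%. The IRF4 peak at -22.9 kb, also a triple site, was unmatched, as were that over JunB at 29.0 kb and that at 38.2 kb without JunB. They stood at 40.1%, 53.0% and 64.3% of the list. In those parts 37.4%, 40.3% and 38.4% of peaks of the same JunB state lacked a counterpart. Thus 2 of 5 *Cdk6* IRF4 peaks were kept, where 3.89 would be kept at the rates of like place. Of the *Junb*-deficient peaks 2 had no counterpart. One, at 1.0 kb and 27.5% of the list, overlapped the only BATF peak at the 9 loci that had no *Junb*-sufficient IRF4 peak. The other, at 39.4 kb, lay 1269 bp from the unmatched peak at 38.2 kb.

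**Figure D2:**
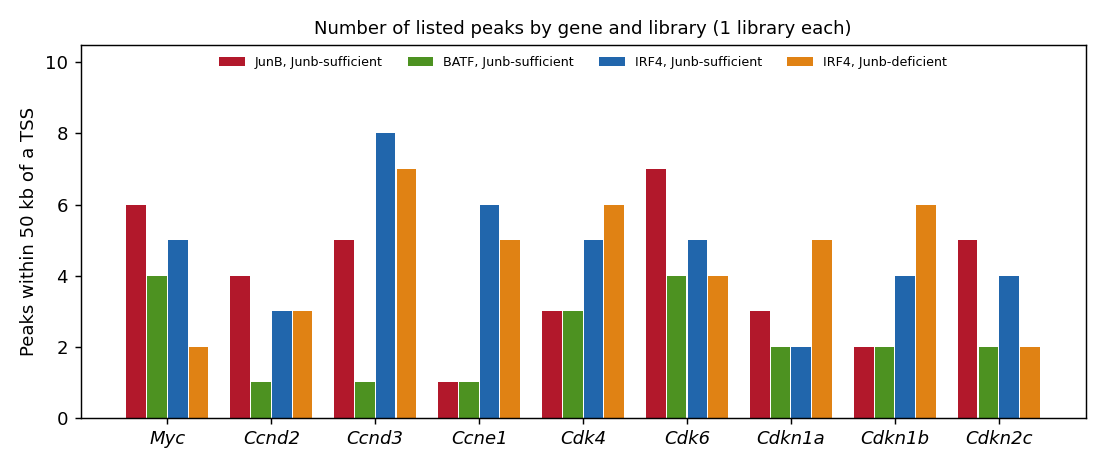
Number of peaks within 50 kb of a TSS (y axis) for each of the 9 genes, 1 bar per library and 1 library per condition, so there are no error bars. JunB peaks run from 1 at *Ccne1* to 7 at *Cdk6*, and between *Junb*-sufficient and *Junb*-deficient cells IRF4 peaks number 5 and 2 at *Myc* and 2 and 5 at *Cdkn1a*.

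The 3 inhibitor genes together had more IRF4 peaks listed in *Junb*-deficient cells (13) than in *Junb*-sufficient cells (10), though *Cdkn2c* had fewer (2 against 4). Of the 11 peaks listed in *Junb*-deficient cells alone 6 were theirs, with 3 each at *Cdkn1a* and *Cdkn1b* and 0 at *Cdkn2c*. These 6 of 13 compare with 3.67 at the rates of like place and with 30.2% of *Junb*-deficient IRF4 peaks near any protein-coding gene, and the difference was not tested. *Cdkn1a*, which encodes p21, a target of p53 (chromosome 17, 29227924 to 29237667, plus strand), had 3 JunB, 2 BATF, 2 IRF4 and 5 *Junb*-deficient IRF4 peaks. Both IRF4 peaks were kept. The triple site at -24.8 kb moved from 11.1% to 31.4%, and the intronic site at 1.7 kb, shared with BATF, from 31.4% to 42.4%. The 3 additional peaks stood at -41.6, -8.8 and 45.3 kb, at 89.4%, 40.7% and 82.2% of the *Junb*-deficient list, and none overlapped JunB or BATF. The first and the last of these are nearer to *Srsf3* and *Rab44*.

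*Cdkn1b*, the gene of p27, which binds cyclin-CDK complexes (chromosome 6, 134870419 to 134875531, plus strand), had 2 JunB, 2 BATF, 4 IRF4 and 6 *Junb*-deficient IRF4 peaks. Of its 14 peaks 10 were nearer to *Gpr19*, the upstream neighbour. Both JunB peaks were triple sites, at -27.3 kb in a *Gpr19* intron and at -16.3 kb, and both IRF4 peaks were kept at the 1 bp rule. At -27.3 kb the IRF4 peak moved from 21.3% to 52.6%, the furthest down of all kept peaks. At -16.4 kb it moved from 12.4% to 29.8%, and its centre was displaced by 408 bp, so that it no longer touched the JunB peak. The window at this displaced centre held the only AICE match among the peaks searched at the 9 loci. The peak at -16.4 kb had no counterpart under either other overlap rule, centres within 100 bp or an overlap of 50% of the shorter peak. The unmatched peak at -47.1 kb lay off JunB at 78.4% of the list, where 51.1% of peaks off JunB were unmatched. Additional *Junb*-deficient peaks stood at -22.5 kb over the *Gpr19* start, at 5.5 kb (21.0% of the list, with an ISRE match) and at 26.8 kb.

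*Cdkn2c*, which encodes the INK4 inhibitor p18 (chromosome 4, 109333481 to 109339794, minus strand), had 5 JunB, 2 BATF, 4 IRF4 and 2 *Junb*-deficient IRF4 peaks. Of its 13 peaks 5 were nearest to *Cdkn2c*. Both triple sites kept IRF4, at -7.3 kb (7.55% and 13.6% of the lists) and 6.3 kb (11.1% and 23.8%). The first is nearer to *Faf1*, with its IRF4 centre 2097 bp from a TSS of that gene. The JunB peak at -7.3 kb was high, at 3.70% of its list, and had an AP-1 match near its centre. Both sites with JunB and IRF4 but no BATF, at -36.6 and -38.3 kb in a *Faf1* intron, were listed in *Junb*-sufficient cells alone, at 54.9% and 54.1%. In that part of the list 40.3% of IRF4 peaks over JunB were unmatched. A JunB peak at 1.8 kb, in the gene, had no partner. The locus had no additional *Junb*-deficient peak.

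**Figure D3:**
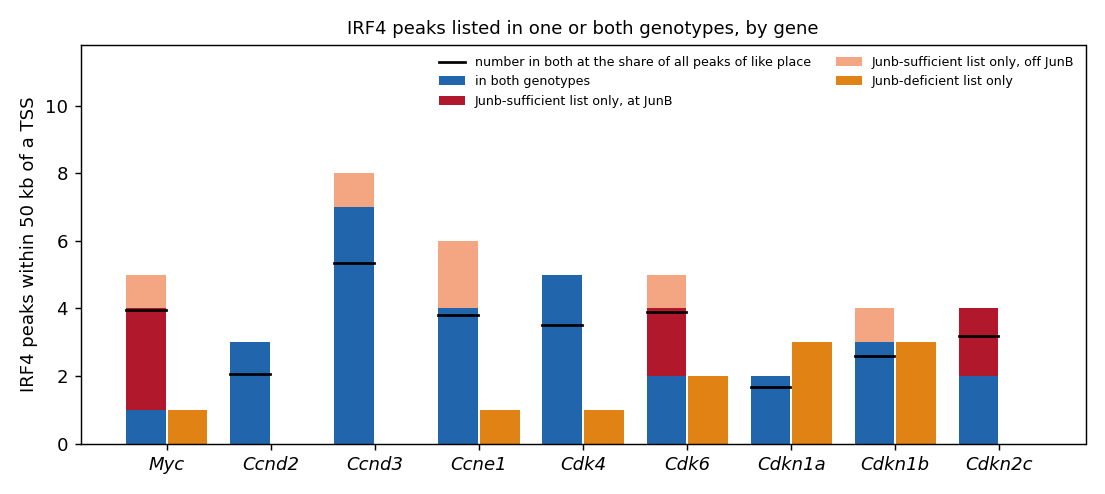
IRF4 peaks per gene (y axis, number within 50 kb of a TSS). The left bar stacks *Junb*-sufficient peaks listed in both genotypes (blue) and those without a *Junb*-deficient counterpart at JunB (red) or off JunB (light red), the right bar gives peaks of the *Junb*-deficient list alone, and the black line is the number kept at the rate of all peaks of like place. The blue bar ends below the line at *Myc*, *Cdk6* and *Cdkn2c*.

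Over the 9 loci, JunB peaks were counted by partner. Of 36 JunB peaks 16 overlapped both BATF and IRF4 peaks (44.4%, 27.9 to 61.9%), against 34.1% of all JunB peaks within 50 kb of a protein-coding TSS. A further 15 overlapped neither (41.7%, 25.5 to 59.2%), against 47.8%. Both intervals include the value over all genes. Of 20 BATF peaks 17 overlapped JunB and 19 overlapped IRF4, against 69.9% and 88.5% of BATF peaks near any protein-coding gene. Of the 16 triple JunB sites 11 also overlapped an IRF4 peak of *Junb*-deficient cells, against 82.3% of such sites near any protein-coding gene. Counted over the 17 BATF peaks that overlapped JunB and IRF4 it was 13, and the difference was not tested.

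The median number of peaks per gene at the loci was above that over all protein-coding genes for every list. All 9 genes had a JunB peak, against 64.8% of protein-coding genes, and the median was 4 against 1. All 9 had a BATF peak (48.9% of genes), with a median of 2 against 0. The same held for IRF4, with medians of 5 against 2 in each genotype, where 74% and 73.3% of genes had a peak. Triple sites were present at 8 of the 9, against 35.1% of genes. A window of several TSSs is longer than that of 1, and 44 of the 138 peaks were nearer to the TSS of another gene.

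In *Junb*-deficient cells 29 of 42 IRF4 peaks had a counterpart and 13 did not (31.0%, 17.6 to 47.1%), against 34.3% of IRF4 peaks near any protein-coding gene. At the rates of peaks of like place 12.0 would lack one. Split by JunB, 7 of 20 IRF4 peaks over a JunB peak were unmatched (35%, 15.4 to 59.2%), against 23.4%. Off JunB it was 6 of 22 (27.3%, 10.7 to 50.2%), against 41.1%. Both intervals include the values over all genes, and *Myc* carried 3 of the 7. Without *Myc* the share over JunB was 25%. The order of the shares over and off JunB turned in 2 settings. It was 10% (1 of 10) over and 36.4% (4 of 11) off JunB with lists of equal length, and 24.2% (8 of 33) over and 35% (14 of 40) off JunB at 100 kb. Where JunB and IRF4 overlapped without BATF, 3 of 4 peaks were unmatched, against 41.7% near any protein-coding gene and 1.58 of 4 at like place. With BATF it was 4 of 16, against 16% and 2.41 of 16. The 3 came from *Cdkn2c* and *Cdk6*. Of the 13 unmatched peaks 8 had no *Junb*-deficient IRF4 centre within 10 kb, and 4 of the 23 peaks in the first 50% of the list were unmatched. Neither of these counts was taken over all genes, so neither can be called particular to these loci.

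Peaks of the *Junb*-deficient list alone were 11 of 40 (27.5%, 14.6 to 43.9%), against 30.2%. At the rates of like place 11.3 would be. Of these 11, 9 overlapped neither JunB nor BATF of *Junb*-sufficient cells, 1 overlapped JunB (*Myc*) and 1 BATF (*Cdk6*). Of all such peaks near protein-coding genes 89.1% overlapped neither. They were found at 6 genes.

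The 29 kept peaks mostly stood lower in the *Junb*-deficient list. The median change of place was 7.92 percentage points downwards (quartiles 0.23 and 12.9), and 22 of 29 moved down. It was 2.20 points with a distance of 20 kb and 5.07 points with 100 kb. Over 15823 kept peaks near any protein-coding gene the median was 0.21 points, and 51.0% moved down. Over JunB the loci had a median of 12.9 points with 12 of 13 moving down, against 1.96 points and 60.6% for all such peaks. At like place, the medians of peaks over JunB of like place, 1 for each of the 13, had a median of 3.42 points. Of the 13, 11 moved further down than the median of peaks over JunB of like place. At these 11, 12.2% to 38.1% of peaks of like place moved at least as far down. Off JunB the median was 1.01 points with 10 of 16 moving down, against -2.95 points and 43.1%. Of these 16, 11 likewise had a change further down than the median of peaks off JunB of like place. Those like-place medians had a median of -1.41 points. Of peaks of like place 9.78% to 45.4% changed at least as far down as these 11. The 13 belong to 8 genes in 1 pair of libraries, and no difference between peaks over and off JunB was tested. Depth and list length differ between both IRF4 libraries, and their part in the change was not tested.

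**Figure D4:**
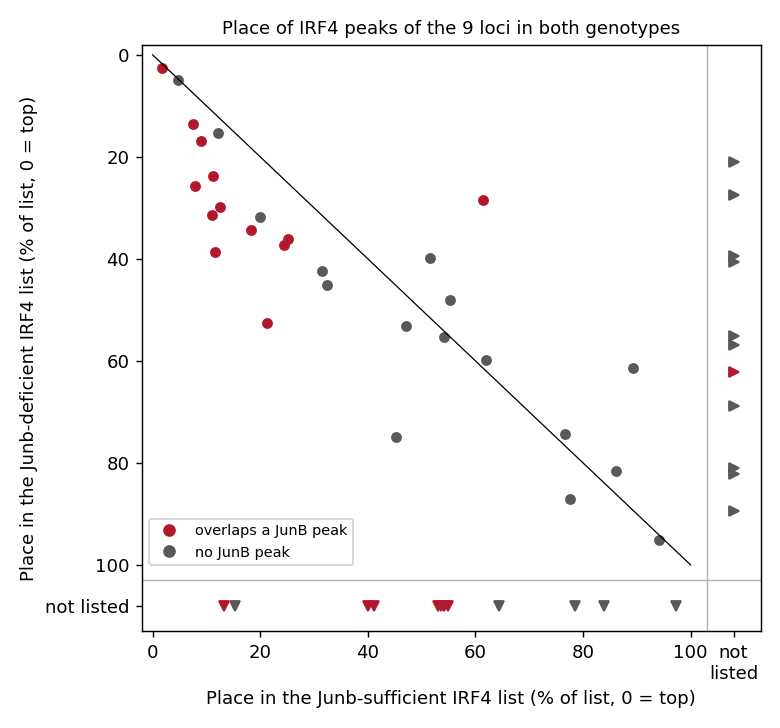
Place of each IRF4 peak of the 9 loci in the *Junb*-sufficient list (x axis) and the *Junb*-deficient list (y axis), both as a percentage of the list with 0 at the top, red where it overlaps a JunB peak. Triangles are peaks of 1 list alone. Of the red points 12 lie below the line of equal place and 1, from *Ccnd3*, lies above it.

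An AP-1 match was found in 12 of the 36 JunB peaks (33.3%, 18.6 to 51.0%), against 25.5% of JunB peaks near any protein-coding gene and 2.33% of windows of the same width shifted 5 kb downstream. The share was 7 of 16 (43.8%) in triple sites, against 39.6%, and 3 of 15 (20%) in peaks without partner, against 13.9%. ISRE matches were in 2 of 36, against 5.36%. No AICE match was in a JunB peak of the loci, which allows a share of up to 9.74%, against 3.65% over all genes. In windows of equal width around IRF4 centres, AP-1 was matched in 7 of 13 kept and 2 of 7 unmatched peaks over JunB. Over all genes it was 35.1% and 49.1%, which the intervals (25.1 to 80.8% and 3.67 to 71.0%) include. Of the sequences shown, none of the unmatched *Cdk6* windows held a match, and of those of *Myc* only that at 41.1 kb did. A match is a run of letters and not a measured site.

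Other genes of the pathway gave a background of like function. Of 35 genes of the Myc network, of cyclins, kinases and inhibitors, of the RB and E2F families and of activators such as *Cdc25a*, 28 had a JunB peak (80%) and 18 a triple site (51.4%). JunB peaks were most frequent at *Rb1* (9, in a wider window), *Cdk2* (7) and *Ccnb1* (6), and *E2f6* had no peak of any list. Of 71 JunB peaks 29 were triple (40.8%, 29.3 to 53.2%), and of 126 IRF4 peaks 44 lacked a *Junb*-deficient counterpart (34.9%, 26.6 to 43.9%). Both intervals include the shares over all genes, 34.1% and 34.3%. Peaks were summed gene by gene, so a peak near 2 of these genes counted for each.

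Peaks just inside the limit of 50 kb included the *Cdk4* triple site at 48.3 kb and a *Cdkn1a* JunB peak at -48.3 kb. The counts at *Cdk4* thus depend on the limit. The outermost peaks inside were a JunB peak of *Cdk4* at 49.2 kb and a BATF peak of *Cdk4* at 48.4 kb. Nearest outside were a JunB peak of *Cdk6* at -52.9 kb and a *Junb*-deficient IRF4 peak of *Ccnd3* at 53.4 kb.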

How the data were processed

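JunB, BATF and IRF4 ChIP-seq of activated mouse Treg cells was read from 4 peak lists. Per the methods and the file headers, the authors mapped reads with Bowtie2 (mm9), kept uniquely placed reads and called peaks in each library separately with HOMER (version 4.8 in the submitters' processing notes) at a false discovery rate of 0.001 and 4-fold over the local 10 kb. The deposited score column is 1 in every row, so no heights were used. Positions were counted from 1. Groups followed the sample titles. The 9 genes, the pathway list and the comparisons were chosen with earlier results of these data known. All 9 genes are described and all their peaks counted, and other genes are named only where they lie nearer to a peak or lead the pathway list.

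TSSs (69976 protein-coding positions) and introns came from GENCODE models of the same assembly, in which 0 peaks lay outside their chromosome. Overlap meant 1 bp or more. The background was peaks within 50 kb of any protein-coding TSS, also by 20 equal parts of each list. Within a list, peaks fall into blocks ordered by position, up to 3.81% of the JunB list and 1.35% of the IRF4 lists, so places inside a block have no order. Recorded depth was 21127029 to 27399986 tags. The overlap rule of 1 bp and the AP-1 search were tested on simulated data, and the other steps were not. Python 3.11.15, NumPy 2.4.6, SciPy 1.17.1 and matplotlib 3.10.9 were used. Alternatives were other distances, nearest-TSS assignment, protein-coding transcripts, overlap rules, equal lists, wider JunB peaks, exchanged BATF and IRF4 lists, omitted genes and, chosen after seeing the data, middle places of blocks. A second performance of the experiment was not analysed here.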

Additional observations from a re-analysis of the deposited data

How the results depend on the processing

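Of 83 alternatives over 12 results, 69 stayed within the main interval (for the change of place, its quartiles) or within 1.5 times the main count, 14 moved and 0 reversed. These verdicts concern each value alone and not the order of 2 shares. For the AP-1 share a verdict of reversed was not possible. The intervals are wide, such as 15.4 to 59.2% for the unmatched share over JunB, so staying within them is a weak check. Exchanging the BATF and IRF4 lists could not change the share of JunB peaks with both or with neither. Those alternatives were bound to stay. Counts of peaks followed the distance. At 20 kb they were 15 for JunB, 11 for BATF, 18 for IRF4 and 19 for IRF4 in *Junb*-deficient cells, and at 100 kb 56, 33, 73 and 71. With nearest-TSS assignment 26 *Junb*-deficient IRF4 peaks remained. With the BATF and IRF4 lists exchanged, as the antibody field has them, BATF had 42 peaks and IRF4 20, the unmatched share off JunB was 0% (0 of 3) and the share of *Junb*-deficient peaks without a counterpart 60%. With lists of equal length the unmatched share over JunB was 10% (1 of 10), below the 35% of the full lists, and off JunB 36.4%, so the order of both shares turned, as it did at 100 kb (24.2% over and 35% off JunB). Leaving out 1 gene gave 40% (without *Myc*) to 50% for the triple share, 24.3% (without *Myc*) to 35.3% for unmatched IRF4 peaks and 25% to 38.9% for those over JunB. With JunB peaks widened the triple share was 55.6% (20 of 36) and the share with neither 30.6% (11 of 36). With nearest-TSS assignment AP-1 was matched in 20% of JunB peaks (5 of 25). The median change of place, 7.92 points, was 2.20 points at 20 kb and 5.07 at 100 kb, over 1.5 times smaller in each case. It was 7.89 with middle places of blocks, an alternative chosen after seeing the data. No paired analysis was possible because each condition had 1 library. Without peak heights, a peak just under the caller's threshold and a site without binding cannot be told apart.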
